A study of Mus musculus with 10 samples.

Results

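The proteasome subunit genes described here are the protein-coding mouse genes whose symbol is Psma, Psmb, Psmc or Psmd followed by digits alone. The rule found 39 of the 48709 genes counted in this series: 8 alpha and 11 beta subunits of the core, 6 ATPases of the base and 14 other regulatory subunits. A further 5 genes with the same start of the symbol, pseudogenes and Psmc3ip, fell outside the rule. The members were chosen by name and not by any measured value, though earlier results of these data were known when the set was chosen. Polyadenylated RNA was sequenced from mouse primary hippocampal neurons cultured for 12 days, the last 48 h of them, from day 10 on, with lipid nanoparticles. The nanoparticles carried an anti-miR against miR-409-5p (anti-miR-409-5p, 4 libraries), an anti-miR against miR-501-3p (anti-miR-501-3p, 4 libraries) or scramble RNA (control, 2 libraries). All 3 groups therefore share the nanoparticle treatment, and no library was left without one. The labels name no dose, and nothing in them tells whether the libraries of 1 group are separate cultures, so every p-value is set against a spread that may be technical. Mature microRNAs are not polyadenylated and were not measured, so the silencing itself was not checked here.

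The proteasome is the multi-subunit protease that degrades proteins tagged with ubiquitin. Its barrel-shaped core is built of rings of alpha and beta subunits, of which Psmb5, Psmb6 and Psmb7 carry the catalytic sites, and Psmb8, Psmb9 and Psmb10 replace them in the interferon-inducible immunoproteasome. The regulatory particle that caps the core recognises, deubiquitinates and unfolds substrates through its ring of ATPases (Psmc genes) and its non-ATPase subunits (Psmd genes), and in neurons proteasome activity is known to be needed for synaptic remodelling. Subunit genes are known to be transcribed together under the factor Nfe2l1, which binds antioxidant response elements in their promoters.

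The mature sequences of both microRNAs are shown because the anti-miRs are directed against them. They are RefSeq sequences of build GRCm38.p6, at chr12:109743172-109743194, + strand for miR-409-5p and chrX:7241270-7241291, - strand for miR-501-3p, with the seed, bases 2 to 8, in capitals.
miR-409-5p: aGGUUACCcgagcaacuuugcau
miR-501-3p: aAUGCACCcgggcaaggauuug
The seeds differ, and so do the sites that pair with them in the longest annotated 3' UTR of a gene. A site of miR-409-5p was searched as GGTAACC, which pairs with bases 2 to 8, as the shorter pairing followed by an A (GTAACCA), or as both at once (GGTAACCA). For miR-501-3p the searched forms were GGTGCAT, the shorter pairing with an A (GTGCATA), and both at once (GGTGCATA). A miR-409-5p site was found in 2 of the 39 members, Psma3 and Psmd12, and in 9.85% of the 14212 tested genes with a 3' UTR. A miR-501-3p site was found in 4 members, Psma1, Psmb7, Psmd5 and Psmd11, and in 13% of the tested genes. The sites are printed from the mm10 genome with the bases that match the search in capitals, since these are the members that the silenced microRNAs could pair with by seed.
Psma3 (chr12:70995294-70995323, + strand): agggacattctGTAACCActactgagaaca
Psmd12 (chr11:107503739-107503768, + strand): aatgggactctGTAACCAccccaaccactg
Psma1 (chr7:114264724-114264753, - strand): ccatataatggGGTGCATtttctttgaaag
Psmb7 (chr2:38588119-38588148, - strand): agatgactcggGGTGCATAccacccctacc
Psmd5 (chr2:34849922-34849951, - strand): cccaccacgatGGTGCATgtatcagcctgc
Psmd11 (chr11:80471821-80471850, + strand): taaccctcattGGTGCATctgtatccagcg
The Psmb7 site is the only 8-base match among them, and Psmb7 had a log2 fold change of -0.068 in anti-miR-501-3p libraries, which did not pass the test. Psmd12, with a miR-409-5p site near the start of its 3' UTR, had a log2 fold change of 0.042 in anti-miR-409-5p libraries, also without passing. Psma1, Psmd5 and Psmd11 had log2 fold changes of 0.096, 0.097 and 0.049 in anti-miR-501-3p libraries, and none passed. Psma3 was therefore the 1 member with a site for an anti-miR's own microRNA that passed the test in that anti-miR's comparison. Its values stand with the alpha subunits. Psma3 was also called higher in the anti-miR-501-3p libraries, and no miR-501-3p site was found in it. A site match is a description of the sequence and was not tested as a cause.

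Libraries held 22254788 to 32096808 counts, and 38 of the 39 members passed the filter on low counts. Psma8 did not pass. Neuron markers summed to 6660 to 6990 CPM in anti-miR-409-5p libraries, 6510 to 6950 CPM in anti-miR-501-3p libraries and 6310 to 6400 CPM in control libraries, while markers of microglia and other leukocytes summed to 14.1 to 15.8, 15.1 to 18.7 and 15.5 to 16.4 CPM in the same order of groups. The neuron markers did not move together: of 8, 5 rose and 3 fell in anti-miR-409-5p libraries, and 4 rose and 3 fell in anti-miR-501-3p libraries, with Tubb3, Rbfox3 and Slc17a7 lower in both. CPM is the count scaled to a common library size with TMM factors. Astrocyte markers summed to 1790 to 1830, 1740 to 1780 and 1720 to 1750 CPM, and no neuron or astrocyte marker was at 0 in any library. The sums of oligodendrocyte lineage markers were 122 to 154, 95.1 to 154 and 120 to 187 CPM, those of proliferating cell markers 84.8 to 111, 58.4 to 95 and 69.5 to 105 CPM, and those of endothelial, mural and fibroblast markers 119 to 148, 150 to 175 and 127 to 176 CPM, so the control libraries differed from each other in all 3. In such bulk RNA fewer cells of a type and less RNA per cell cannot be told apart. The log2 level of a gene, relative to its mean over libraries, changed with transcript GC content by -0.109 to 0.0384 per 10 percentage points in anti-miR-409-5p libraries, -0.131 to 0.00784 in anti-miR-501-3p libraries and 0.203 and 0.272 in control libraries. Mitochondrially encoded RNA took 3.4% to 3.8%, 3.33% to 3.95% and 2.59% and 2.78% of counts in these groups. Within each group the slope fell and the mitochondrial share rose with replicate number, and control has only replicates 1 and 2. Control replicate 1 lay at the far end of both measures. Their part in the results was not tested. For each subunit and listed related gene called in the main fit, log2 fold changes with the GC and length trend removed are given beside it. So are those without control replicate 1, and neither was called unless that is said. Such values are not given for near-identical copies of members, or for members with the reads of a copy added.

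All 4 classes were expressed, at levels that differed widely among the subunits of each class. Levels are given here as TPM, which divides counts by the length of the union of a gene's exons and scales each library to the same total. In control libraries the 7 constitutive alpha subunits ran from 33 ± 3.03 TPM for Psma3 to 351 ± 0.672 TPM for Psma6, a ratio of 10.6 with a median of 110 TPM. The 7 constitutive beta subunits ran from 29.5 ± 0.384 TPM for Psmb3 to 351 ± 10.1 TPM for Psmb4, with a median of 118 TPM. The ATPases were the most even class, from 105 ± 0.173 TPM for Psmc2 to 335 ± 7.72 TPM for Psmc5, a ratio of 3.19 with a median of 205 TPM. The other regulatory genes ran from 18.5 ± 0.143 TPM for Psmd9 to 265 ± 4.07 TPM for Psmd2, with a median of 136 TPM. Psmd5, Psmd9 and Psmd10 encode assembly chaperones, and without them the lowest was Psmd11 at 38.3 ± 0.77 TPM. Although core subunits are present in fixed numbers in the particle, their mRNA levels per length were not equal. These levels depend on the length used: with the longest annotated transcript in place of the exon union, the control median of the alpha subunits was 173 TPM instead of 110. The exon union of Psmb3 has 2300 bases and its longest coding transcript 766, against 899 in both for Psmb5. Near-identical processed pseudogenes were found for members of low and of high level. Psma3 matches Gm13835 at 100% identity over 665 bases, and Psmb3 matches Gm4950 at 97.1% over 615 bases. Psmd2, the highest of the other regulatory subunits, matches Gm5422 at 96.2% over 2560 bases. The handling of multi-mapping reads is not given, and whether such copies lower these levels was not tested.

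**Figure D1:**
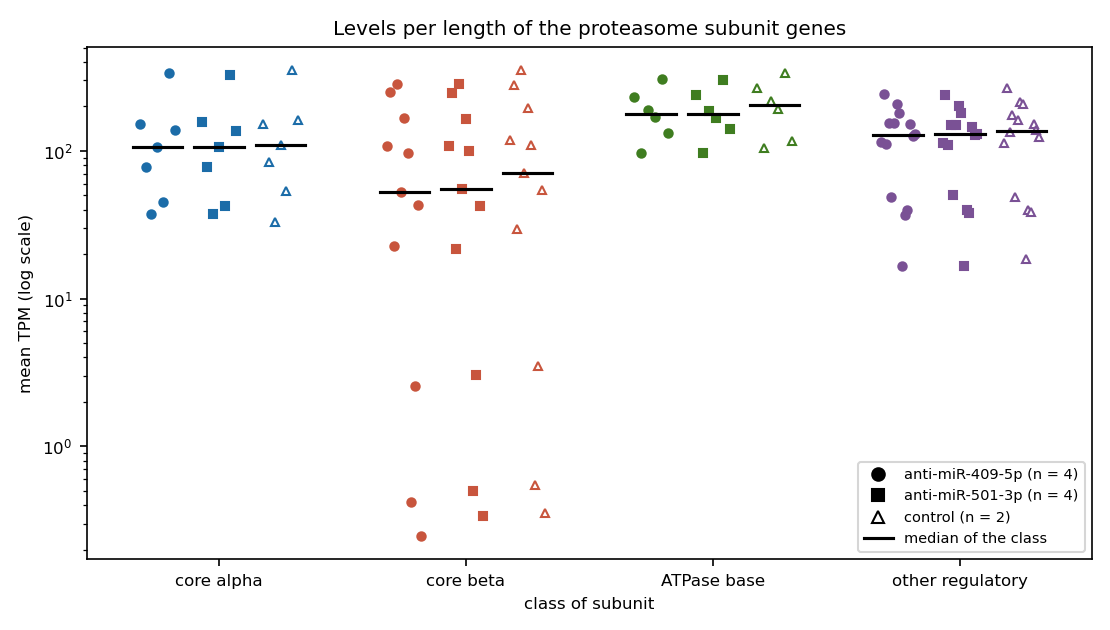
Mean TPM (log scale) of each of the 38 tested proteasome subunit genes by class of subunit; circles are anti-miR-409-5p (4 libraries), squares anti-miR-501-3p (4 libraries), open triangles control (2 libraries), and bars the class median over the tested genes. The constitutive members lie between 16.5 TPM, for the assembly chaperone gene Psmd9, and 351 TPM in all 3 groups. The 3 lowest points in the beta class are Psmb9, Psmb8 and Psmb11.

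As a share of all counts, the 39 genes took 0.314% ± 0.00775 of the counts in anti-miR-409-5p libraries (SD, n = 4), 0.313% ± 0.0035 in anti-miR-501-3p libraries (SD, n = 4) and 0.338% ± 0.00636 in control libraries (SD, n = 2). The highest anti-miR library, anti-miR-409-5p replicate 1, had 0.321% (95% exact binomial interval 0.319 to 0.323), and the lower control library had 0.334% (0.332 to 0.336), so the groups did not overlap. Such intervals cover counting error only. The beta subunits took 0.0522% ± 0.00208, 0.0523% ± 0.00148 and 0.0606% ± 0.0012 of counts in the 3 groups in that order. The alpha subunits took 0.0485% ± 0.00129, 0.0486% ± 0.000819 and 0.0512% ± 0.000283, the ATPases 0.0643% ± 0.00135, 0.0648% ± 0.00108 and 0.0691% ± 0.00184, and the other regulatory subunits 0.149% ± 0.00374, 0.147% ± 0.00275 and 0.158% ± 0.00283. All 4 class means were thus lower in both anti-miR groups than in control. These shares are of total counts without TMM factors, a scale on which the median of all tested genes was lower too. With scaling by total counts that median log2 fold change was -0.056 in anti-miR-409-5p and -0.061 in anti-miR-501-3p libraries, against -0.14 and -0.12 over the members. With TMM it was -0.012 in both.

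In anti-miR-409-5p libraries against control, 2 of the 38 tested members rose and 12 fell at a Benjamini-Hochberg adjusted p under 0.05 in edgeR's quasi-likelihood test. Psma3 and Psmc6 rose, and Psma7, Psmb3, Psmb4, Psmb5, Psmb6, Psmb10, Psmc1, Psmc3, Psmc4, Psmd3, Psmd4 and Psmd8 fell. Over all 16884 tested genes, 15.6% rose and 12.2% fell, against 5.26% and 31.6% of the members. Here and below, all tested genes were not matched to the members in expression level, on which the share called also depends. The median log2 fold change was -0.099 over the members and -0.012 over all tested genes. All 4 anti-miR-409-5p libraries lay above both control libraries for 5 of the 38 members, against 24.1% of all genes, and below both for 24 of the 38, against 24% of all genes. The sizes were small: the largest called differences were -0.36 for Psmb5 and -0.32 for Psmb3 on the log2 scale.

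In anti-miR-501-3p libraries against control, 3 members rose and 14 fell by the same test. Psma3, Psmc6 and Psmd14 rose, and Psma5, Psma7, Psmb2, Psmb3, Psmb4, Psmb5, Psmb6, Psmb10, Psmc3, Psmc4, Psmd2, Psmd3, Psmd4 and Psmd8 fell. Over all tested genes, 17.6% rose and 15.4% fell, against 7.89% and 36.8% of the members. The median log2 fold change was -0.069 over the members and -0.012 over all tested genes. All 4 libraries lay above both controls for 6 of the 38 members, against 24.3% of all genes, and below both for 19 of the 38, against 25.6%. Both comparisons use the same 2 control libraries, so their values for a member are not independent of each other.

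These counts depended on control replicate 1. Without control replicate 1, only Psmb10 remained called in anti-miR-409-5p libraries, where it was lower, and 1302 of all genes were called. In anti-miR-501-3p libraries Psmb3 and Psmb10 then remained lower and Psmc6 remained higher, with 1800 of all genes called. With the GC and length trend removed, 2 members were called in each comparison, Psma2 and Psmc6, both lower. That is 5.26% of the tested members, against 5.38% of all genes in anti-miR-409-5p and 8.02% in anti-miR-501-3p libraries. With 1 surrogate variable in the model no member was called in either, against 5.54% and 4.1% of all genes. The split over all genes also moved with the scaling. In anti-miR-409-5p libraries 2634 genes rose and 2062 fell with TMM, against 2233 and 3074 with upper-quartile scaling and 2193 and 3209 with total counts. In anti-miR-501-3p libraries 2974 rose and 2605 fell with TMM, against 2540 and 3607, and 2452 and 3779. With either of these scalings 20 or 21 members were called in each comparison. These are 52.6% or 55.3% of the tested members, against 31.4% to 36.9% of all genes.

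**Figure D2:**
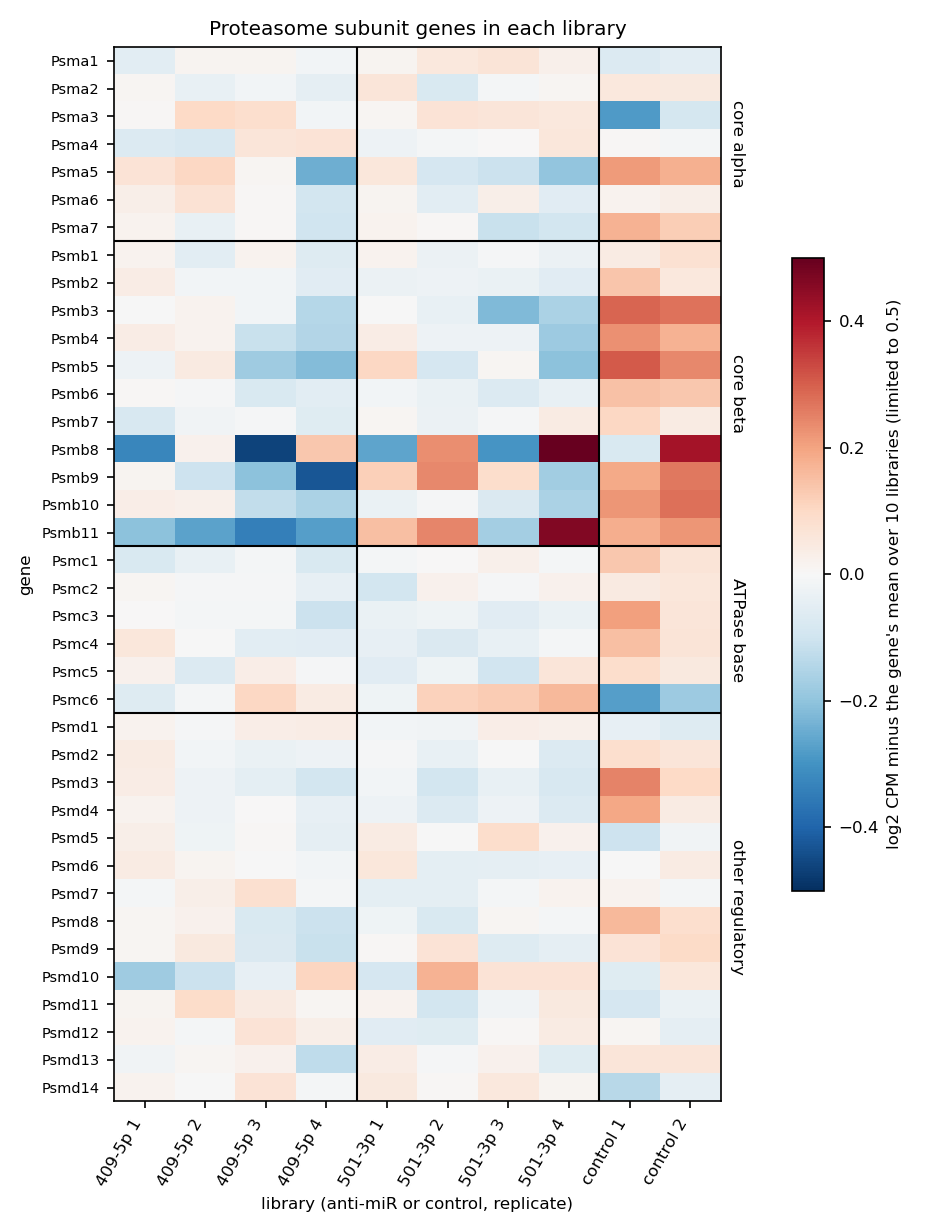
Colour shows the log2 CPM of each tested proteasome subunit gene in each library minus the gene's mean over the 10 libraries (scale limited to 0.5 either way); columns are anti-miR-409-5p, anti-miR-501-3p and control libraries, and rows are grouped by class. Most beta subunits are red, above their mean, in the 2 control columns, while Psma3 and Psmc6 are blue there, and control 1 is further from the anti-miR libraries than control 2 for Psma3, Psmc3, Psmc6, Psmd3 and Psmd4.

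**Figure D3:**
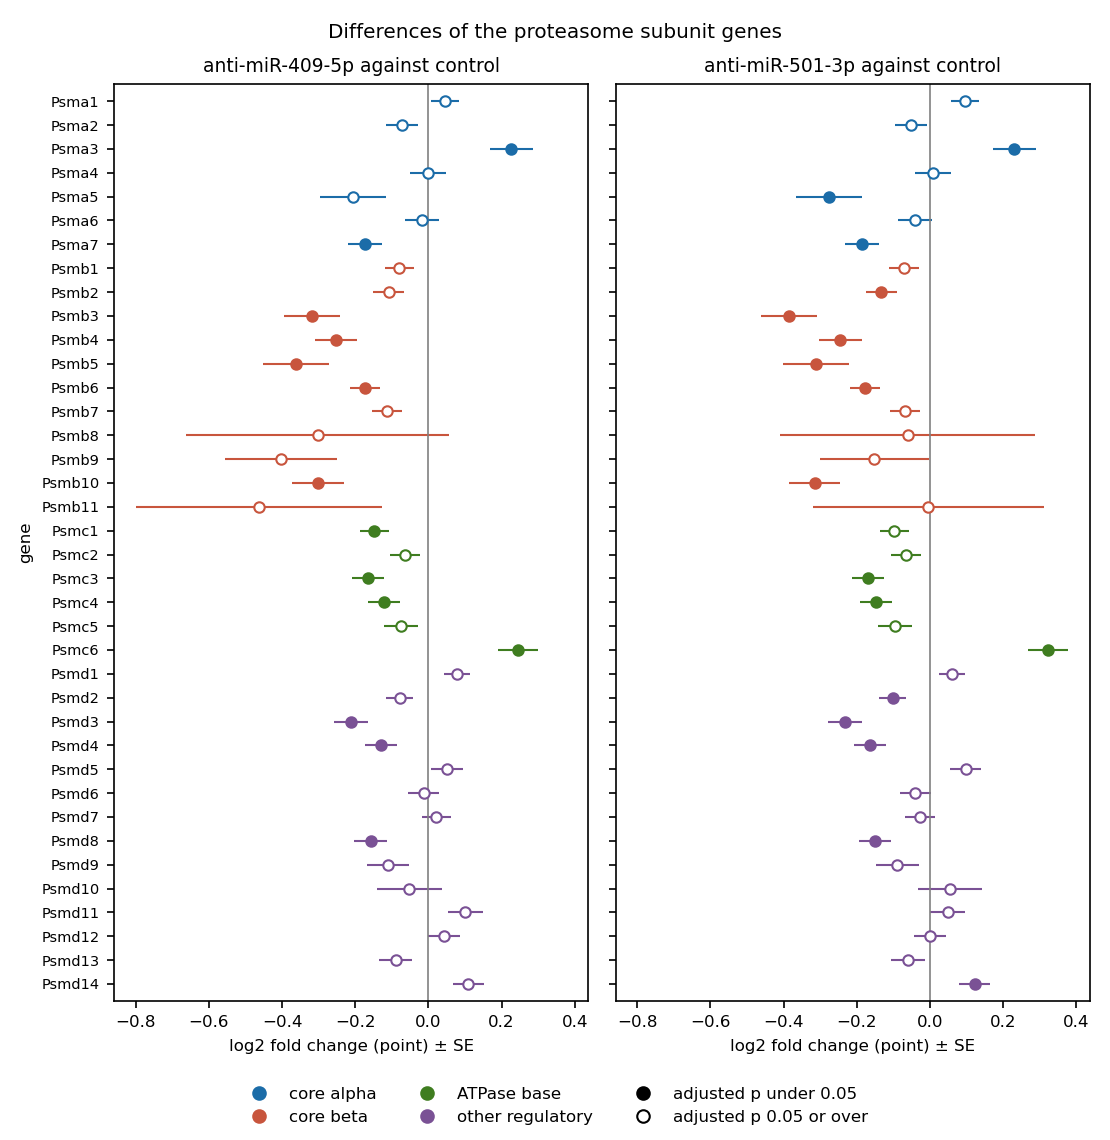
Log2 fold change of each tested proteasome subunit gene with its standard error, in anti-miR-409-5p libraries against control (left) and anti-miR-501-3p libraries against control (right); filled points passed an edgeR adjusted p of 0.05. All 11 beta subunits lie left of 0 in both panels, and the members that passed to the right of 0 are Psma3 and Psmc6 on the left and Psma3, Psmc6 and Psmd14 on the right.

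Among the alpha subunits, which form the outer rings of the core and its gate, 1 rose and 1 fell of 7 tested in anti-miR-409-5p libraries, and 1 rose and 2 fell in anti-miR-501-3p libraries. Their median log2 fold changes were -0.018 in anti-miR-409-5p and -0.041 in anti-miR-501-3p libraries, and the median GC content of their transcripts was 45%, the lowest of the 4 classes. Counts called in each class are to be read against all tested genes, of which 15.6% rose and 12.2% fell in anti-miR-409-5p libraries. In anti-miR-501-3p libraries 17.6% of all tested genes rose and 15.4% fell. Psma3 (chr12:70974621-70996347, + strand) had 34, 36.2, 35.9 and 33.5 CPM in the anti-miR-409-5p libraries, 34.1, 35.5, 35.3 and 35.1 CPM in the anti-miR-501-3p libraries, and 27.8 and 31.8 CPM in the control libraries. Every anti-miR library lay above both controls, and control replicate 1 was lower than control replicate 2 by more than the anti-miR libraries differed among themselves. Psma3 rose, with a log2 fold change of 0.23 ± 0.059 (SE; edgeR, Benjamini-Hochberg adjusted p = 0.00872) in anti-miR-409-5p libraries and one of 0.23 ± 0.058 (SE, adjusted p = 0.00591) in anti-miR-501-3p libraries. Its log2 fold changes with the GC and length trend removed were -0.086 in anti-miR-409-5p libraries and -0.13 in anti-miR-501-3p libraries, lower rather than higher and not called. Without control replicate 1 they were 0.15 in anti-miR-409-5p libraries and 0.15 in anti-miR-501-3p libraries.

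Psma7 (chr2:180036374-180042433, - strand) had 106, 102, 105 and 97.8 CPM in the anti-miR-409-5p libraries, 106, 105, 96.9 and 98.2 CPM in the anti-miR-501-3p libraries, and 118 and 114 CPM in the control libraries. No anti-miR library reached the lower control. Psma7 fell, with a log2 fold change of -0.17 ± 0.047 (SE; edgeR, Benjamini-Hochberg adjusted p = 0.0112) in anti-miR-409-5p libraries and one of -0.19 ± 0.047 (SE, adjusted p = 0.00578) in anti-miR-501-3p libraries. For Psma7, removing the GC and length trend left -0.064 in anti-miR-409-5p libraries and -0.080 in anti-miR-501-3p libraries, and leaving out control replicate 1 left -0.13 in anti-miR-409-5p libraries and -0.15 in anti-miR-501-3p libraries. Psma5 (chr3:108256926-108279974, + strand) had 15, 15.4, 14.4 and 12.1 CPM in the anti-miR-409-5p libraries, 14.9, 13.5, 13.3 and 12.5 CPM in the anti-miR-501-3p libraries, and 16.6 and 16.2 CPM in the control libraries. All anti-miR libraries were below both controls, and replicate 4 was the lowest of each anti-miR. Its difference passed the test in anti-miR-501-3p libraries, with a log2 fold change of -0.28 ± 0.090 (SE; edgeR, Benjamini-Hochberg adjusted p = 0.0248), and not in anti-miR-409-5p libraries, with one of -0.21 ± 0.090 (SE, adjusted p = 0.0947). In anti-miR-501-3p libraries Psma5 had -0.24 with the trend removed and -0.24 without control replicate 1.

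Psma2 (chr13:14613240-14674236, + strand) had 69.6, 67.5, 68.6 and 67 CPM in the anti-miR-409-5p libraries, 72.2, 65.7, 68.7 and 69.7 CPM in the anti-miR-501-3p libraries, and 71.7 and 71.5 CPM in the control libraries. The anti-miR-409-5p libraries lay just below both controls and the anti-miR-501-3p libraries overlapped them. Its log2 fold changes were -0.071 in anti-miR-409-5p libraries and -0.053 in anti-miR-501-3p libraries and did not pass, while with the GC and length trend removed they were -0.47 (edgeR, Benjamini-Hochberg adjusted p = 0.00761) in anti-miR-409-5p libraries and -0.51 (adjusted p = 0.00309) in anti-miR-501-3p libraries, called lower in both. Only Psmc6 among the tested members has a lower GC content than Psma2, 39.4%. That value is of the longest coding transcript of Psma2, 2911 bases long. Genes with transcripts under 42% GC had a median log2 fold change of 0.38 in anti-miR-409-5p libraries and 0.42 in anti-miR-501-3p libraries. Whether the correction removes too much at low GC was not tested. Psma1 had 105, 110, 110 and 108 CPM in the anti-miR-409-5p libraries, 110, 113, 114 and 111 CPM in the anti-miR-501-3p libraries, and 104 and 105 CPM in the control libraries. Its anti-miR-501-3p libraries lay above both controls, and neither of its log2 fold changes, 0.045 in anti-miR-409-5p libraries and 0.096 in anti-miR-501-3p libraries, passed. Psma4 and Psma6 did not pass in either comparison, at -0.00077 and -0.018 in anti-miR-409-5p libraries and 0.0081 and -0.041 in anti-miR-501-3p libraries. Psma8, an alpha subunit of the testis proteasome, had 2 counts over the 4 anti-miR-409-5p libraries, 3 over the 4 anti-miR-501-3p libraries and 2 over the 2 control libraries, at or under the level of 3 counts that a count of 0 allows.

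The beta subunits form the inner rings of the core and hold its catalytic sites, and those of them that were called were all lower. In anti-miR-409-5p libraries 5 of 11 fell and none rose, in anti-miR-501-3p libraries 6 of 11 fell and none rose, and all 11 had a negative log2 fold change in both comparisons. Their median log2 fold changes were -0.30 in anti-miR-409-5p and -0.15 in anti-miR-501-3p libraries, and their transcripts had the highest median GC content of the classes, 53.8%. All 4 libraries lay below both controls for 10 of the 11 in anti-miR-409-5p libraries and for 7 in anti-miR-501-3p libraries. Of all tested genes, 24% and 25.6% lay below both controls in these comparisons, and 12.2% and 15.4% were called lower. With the GC and length trend removed, none was called in either comparison, 10 of the 11 values in anti-miR-409-5p and 7 in anti-miR-501-3p libraries were negative, and the medians were -0.12 in anti-miR-409-5p and -0.043 in anti-miR-501-3p libraries.

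Psmb3 (chr11:97703399-97713500, + strand), a non-catalytic beta subunit, had 12.9, 13.1, 12.8 and 11.7 CPM in the anti-miR-409-5p libraries, 12.9, 12.6, 11.1 and 11.6 CPM in the anti-miR-501-3p libraries, and 15.8 and 15.6 CPM in the control libraries. The controls stood close together and above every anti-miR library. Psmb3 fell, with a log2 fold change of -0.32 ± 0.076 (SE; edgeR, Benjamini-Hochberg adjusted p = 0.00522) in anti-miR-409-5p libraries and one of -0.39 ± 0.076 (SE, adjusted p = 0.00101) in anti-miR-501-3p libraries, and its call in anti-miR-501-3p libraries was kept without control replicate 1. Without that library Psmb3 had -0.30 in anti-miR-409-5p libraries and -0.36 in anti-miR-501-3p libraries, and with the GC and length trend removed -0.16 in anti-miR-409-5p libraries and -0.22 in anti-miR-501-3p libraries. Psmb4 (chr3:94884093-94886961, - strand), also non-catalytic and the most abundant beta subunit, had 142, 140, 128 and 125 CPM in the anti-miR-409-5p libraries, 142, 136, 136 and 122 CPM in the anti-miR-501-3p libraries, and 162 and 156 CPM in the control libraries. The control libraries were again the highest, and within each anti-miR replicate 4 was the lowest. Psmb4 fell, with a log2 fold change of -0.25 ± 0.058 (SE; edgeR, Benjamini-Hochberg adjusted p = 0.00490) in anti-miR-409-5p libraries and one of -0.24 ± 0.058 (SE, adjusted p = 0.00453) in anti-miR-501-3p libraries. Those of Psmb4 were -0.12 in anti-miR-409-5p libraries and -0.11 in anti-miR-501-3p libraries with the trend removed, and -0.21 in anti-miR-409-5p libraries and -0.21 in anti-miR-501-3p libraries without control replicate 1.

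Psmb6 (chr11:70525367-70527858, + strand) is the catalytic subunit with caspase-like activity. It had 76.7, 76.1, 72.5 and 73.6 CPM in the anti-miR-409-5p libraries, 75.7, 74.7, 72.8 and 74.5 CPM in the anti-miR-501-3p libraries, and 84.6 and 83.9 CPM in the control libraries. The 8 anti-miR libraries did not overlap the controls, which differed from each other by less than 1 CPM. Psmb6 fell, with a log2 fold change of -0.17 ± 0.041 (SE; edgeR, Benjamini-Hochberg adjusted p = 0.00490) in anti-miR-409-5p libraries and one of -0.18 ± 0.041 (SE, adjusted p = 0.00298) in anti-miR-501-3p libraries. Removing the GC and length trend gave log2 fold changes of 0.023 in anti-miR-409-5p libraries and 0.021 in anti-miR-501-3p libraries, and leaving out control replicate 1 gave -0.15 in anti-miR-409-5p libraries and -0.16 in anti-miR-501-3p libraries. Psmb7 (chr2:38588036-38644087, - strand), the catalytic subunit with trypsin-like activity, had 77.9, 81.3, 82.1 and 78.9 CPM in the anti-miR-409-5p libraries, 82.9, 80.7, 82.1 and 84.8 CPM in the anti-miR-501-3p libraries, and 88.5 and 84.7 CPM in the control libraries. Its anti-miR-409-5p libraries lay below both controls, and the highest anti-miR-501-3p library overlapped them. With a log2 fold change of -0.11 ± 0.042 (SE; edgeR, Benjamini-Hochberg adjusted p = 0.0505) in anti-miR-409-5p libraries, Psmb7 was the member just outside the threshold, as Psmc4, at adjusted p = 0.0476, was just inside.

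Psmb5, the catalytic subunit with chymotrypsin-like activity, is described here after its values were seen because it shares sequence with a retrocopy. It had 12, 12.6, 10.8 and 10.5 CPM in the anti-miR-409-5p libraries, 13.1, 11.5, 12.3 and 10.6 CPM in the anti-miR-501-3p libraries, and 15.1 and 14.4 CPM in the control libraries. All anti-miR libraries were below both controls, and Psmb5 fell, with a log2 fold change of -0.36 ± 0.090 (SE; edgeR, Benjamini-Hochberg adjusted p = 0.00689) in anti-miR-409-5p libraries and one of -0.31 ± 0.090 (SE, adjusted p = 0.0126) in anti-miR-501-3p libraries. The values of Psmb5 were -0.15 in anti-miR-409-5p libraries and -0.10 in anti-miR-501-3p libraries with the GC and length trend removed, and -0.31 in anti-miR-409-5p libraries and -0.27 in anti-miR-501-3p libraries without control replicate 1. The processed pseudogene Gm3375 is 98.9% identical to the Psmb5 transcript over 796 bases and took 4538 counts over the 10 libraries, against 3491 for Psmb5, so the division of reads between them is uncertain. Gm3375 itself averaged 15.5 ± 0.241 CPM in anti-miR-409-5p libraries (SD, n = 4), 15.8 ± 0.683 in anti-miR-501-3p libraries (SD, n = 4) and 17.4 ± 1.14 in control libraries (SD, n = 2), and passed in neither comparison. With the reads of both added together, Psmb5 was still called lower, at log2 fold changes of -0.25 ± 0.056 in anti-miR-409-5p libraries (SE; edgeR, Benjamini-Hochberg adjusted p = 0.00348) and -0.21 ± 0.056 in anti-miR-501-3p libraries (adjusted p = 0.00736).

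The inducible beta subunits differed in level. Psmb10 (chr8:105935735-105938444, - strand), the inducible counterpart of Psmb7, had 54.6 ± 1.28 TPM in control libraries, Psmb9 3.52 ± 0.115 TPM and Psmb8 0.546 ± 0.129 TPM. Their constitutive counterparts Psmb7, Psmb6 and Psmb5 had 109 ± 3.86 TPM, 194 ± 1.81 TPM and 70.6 ± 2.62 TPM. Psmb10 had 18.6, 18.5, 16.7 and 16.3 CPM in the anti-miR-409-5p libraries, 17.8, 18.1, 17.3 and 16.3 CPM in the anti-miR-501-3p libraries, and 21.2 and 22 CPM in the control libraries. All anti-miR libraries lay below both controls. Psmb10 fell, with a log2 fold change of -0.30 ± 0.070 (SE; edgeR, Benjamini-Hochberg adjusted p = 0.00432) in anti-miR-409-5p libraries and one of -0.32 ± 0.070 (SE, adjusted p = 0.00238) in anti-miR-501-3p libraries, and was the 1 member whose call was kept in both comparisons without control replicate 1, at -0.32 in anti-miR-409-5p libraries and -0.33 in anti-miR-501-3p libraries. It was not called with the GC and length trend removed, at -0.10 in anti-miR-409-5p libraries and -0.12 in anti-miR-501-3p libraries.

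Psmb9, the inducible counterpart of Psmb6, had 2.58, 2.38, 2.22 and 1.9 CPM in the anti-miR-409-5p libraries, 2.78, 3.02, 2.72 and 2.27 CPM in the anti-miR-501-3p libraries, and 2.92 and 3.07 CPM in the control libraries. The anti-miR-409-5p libraries were below both controls and the anti-miR-501-3p libraries overlapped them, and neither comparison passed, with a log2 fold change of -0.40 ± 0.15 (SE; edgeR, Benjamini-Hochberg adjusted p = 0.0574) in anti-miR-409-5p libraries and one of -0.15 ± 0.15 (SE, adjusted p = 0.473) in anti-miR-501-3p libraries. Its exons overlap those of Tap1 on the opposite strand over 212 bases, and the library kit does not mark strand. That is 5.79% of their length. Overlaps on the opposite strand cover 14.7% in Psmb8, 11.8% in Psmb7, 10.1% in Psmd13 and 8.25% in Psmc3, and smaller shares in Psma4, Psma5, Psmd1 and Psmd3. Psmb8, the inducible counterpart of Psmb5, had 0.299, 0.381, 0.272 and 0.412 CPM in the anti-miR-409-5p libraries, 0.313, 0.441, 0.306 and 0.576 CPM in the anti-miR-501-3p libraries, and 0.356 and 0.501 CPM in the control libraries. At 39, 47 and 25 counts over the libraries of the 3 groups, differences in Psmb8 could not be resolved: its log2 fold changes were -0.30 ± 0.36 in anti-miR-409-5p libraries and -0.061 ± 0.35 in anti-miR-501-3p libraries (SE). Psmb11, the beta subunit of the thymus proteasome, was as rare, at 32, 45 and 23 counts. It had 0.299, 0.286, 0.272 and 0.285 CPM in the anti-miR-409-5p libraries, 0.382, 0.408, 0.306 and 0.475 CPM in the anti-miR-501-3p libraries, and 0.391 and 0.401 CPM in the control libraries. The anti-miR-409-5p libraries lay below both controls and the anti-miR-501-3p libraries did not, and neither comparison passed (0.394 and 0.996, edgeR, Benjamini-Hochberg adjusted p). Psmb1 and Psmb2 completed the class. Psmb1 passed in neither comparison, and Psmb2 fell in anti-miR-501-3p libraries, with a log2 fold change of -0.13 ± 0.042 (SE; edgeR, Benjamini-Hochberg adjusted p = 0.0227), against -0.030 with the GC and length trend removed and -0.077 without control replicate 1.

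Of the 6 ATPases, which use ATP to unfold substrates and open the core, 1 rose and 3 fell in anti-miR-409-5p libraries, and 1 rose and 2 fell in anti-miR-501-3p libraries. The median log2 fold changes were -0.098 in anti-miR-409-5p and -0.096 in anti-miR-501-3p libraries, at a median GC content of 50.5%. Psmc6 (chr14:45329788-45349705, + strand) went against the rest of its class. It had 106, 110, 119 and 114 CPM in the anti-miR-409-5p libraries, 109, 120, 121 and 124 CPM in the anti-miR-501-3p libraries, and 91.6 and 97.7 CPM in the control libraries. Every anti-miR library was above both controls, and replicate 1 was the lowest library of each anti-miR. Psmc6 rose, with a log2 fold change of 0.24 ± 0.055 (SE; edgeR, Benjamini-Hochberg adjusted p = 0.00366) in anti-miR-409-5p libraries and one of 0.32 ± 0.055 (SE, adjusted p = 0.000347) in anti-miR-501-3p libraries. It has the lowest GC content of the members, 37%, and with the GC and length trend removed it was called in the opposite direction, at -0.30 (edgeR, Benjamini-Hochberg adjusted p = 4.22e-05) in anti-miR-409-5p libraries and -0.33 (adjusted p = 1.07e-05) in anti-miR-501-3p libraries. The direction of Psmc6 therefore depended on whether that trend was removed. The call in anti-miR-501-3p libraries, and not that in anti-miR-409-5p libraries, was kept without control replicate 1, where Psmc6 had 0.21 in anti-miR-409-5p libraries and 0.29 in anti-miR-501-3p libraries.

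Psmc3 (chr2:91054009-91066369, + strand) had 121, 120, 120 and 112 CPM in the anti-miR-409-5p libraries, 118, 119, 116 and 118 CPM in the anti-miR-501-3p libraries, and 139 and 126 CPM in the control libraries. Control replicate 1 was the highest library, and control replicate 2 lay closer to the anti-miR libraries than to it. Psmc3 fell, with a log2 fold change of -0.17 ± 0.044 (SE; edgeR, Benjamini-Hochberg adjusted p = 0.0104) in anti-miR-409-5p libraries and one of -0.17 ± 0.044 (SE, adjusted p = 0.00700) in anti-miR-501-3p libraries. Psmc3 had -0.0048 in anti-miR-409-5p libraries and -0.0063 in anti-miR-501-3p libraries once the GC and length trend was removed, and -0.083 in anti-miR-409-5p libraries and -0.089 in anti-miR-501-3p libraries without control replicate 1. Psmc1 (chr12:100110154-100123405, + strand) had 106, 109, 111 and 106 CPM in the anti-miR-409-5p libraries, 111, 112, 114 and 111 CPM in the anti-miR-501-3p libraries, and 123 and 117 CPM in the control libraries. No anti-miR library reached the lower control. It fell in anti-miR-409-5p libraries, with a log2 fold change of -0.15 ± 0.040 (SE; edgeR, Benjamini-Hochberg adjusted p = 0.0104), and was the member just outside the threshold in anti-miR-501-3p libraries, with one of -0.097 ± 0.040 (SE, adjusted p = 0.0676). In anti-miR-409-5p libraries Psmc1 had -0.10 with the trend removed and -0.097 without control replicate 1. The anti-miRs were not shown to differ in Psmc1, since the direct comparison gave a log2 fold change of -0.051 ± 0.033 (SE; edgeR, Benjamini-Hochberg adjusted p = 0.872).

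Psmc4 (chr7:28041707-28050101, - strand) had 92.4, 88.8, 85.7 and 85.5 CPM in the anti-miR-409-5p libraries, 86.5, 84.7, 86.7 and 88.3 CPM in the anti-miR-501-3p libraries, and 98.8 and 92.9 CPM in the control libraries. The highest anti-miR library, anti-miR-409-5p replicate 1, came within 1 CPM of control replicate 2 without overlapping it. Psmc4 fell, with a log2 fold change of -0.12 ± 0.044 (SE; edgeR, Benjamini-Hochberg adjusted p = 0.0476) in anti-miR-409-5p libraries and one of -0.15 ± 0.044 (SE, adjusted p = 0.0155) in anti-miR-501-3p libraries, and had log2 fold changes of 0.029 in anti-miR-409-5p libraries and 0.0024 in anti-miR-501-3p libraries with the GC and length trend removed. Its values without control replicate 1 were -0.063 in anti-miR-409-5p libraries and -0.091 in anti-miR-501-3p libraries. The other ATPases, Psmc2 and Psmc5, passed in neither comparison, with log2 fold changes of -0.063 and -0.075 in anti-miR-409-5p libraries and -0.065 and -0.095 in anti-miR-501-3p libraries.

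Of the 14 other regulatory subunits, none rose and 3 fell in anti-miR-409-5p libraries, and 1 rose and 4 fell in anti-miR-501-3p libraries. Their median log2 fold changes were -0.033 in anti-miR-409-5p and -0.034 in anti-miR-501-3p libraries, at a median GC content of 48.8%. Psmd3 (chr11:98682554-98695979, + strand), a lid subunit, had 140, 134, 132 and 128 CPM in the anti-miR-409-5p libraries, 135, 128, 133 and 129 CPM in the anti-miR-501-3p libraries, and 162 and 146 CPM in the control libraries. The controls differed from each other more than the libraries of either anti-miR did, and no anti-miR library reached the lower one. Psmd3 fell, with a log2 fold change of -0.21 ± 0.047 (SE; edgeR, Benjamini-Hochberg adjusted p = 0.00323) in anti-miR-409-5p libraries and one of -0.23 ± 0.047 (SE, adjusted p = 0.00118) in anti-miR-501-3p libraries. Its GC content, 58.3%, is the highest of the members, and with the GC and length trend removed its log2 fold changes were -0.022 in anti-miR-409-5p libraries and -0.032 in anti-miR-501-3p libraries. Without control replicate 1, Psmd3 had -0.12 in anti-miR-409-5p libraries and -0.14 in anti-miR-501-3p libraries.

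Psmd4 (chr3:95032694-95042614, - strand), a receptor for ubiquitin chains, had 106, 103, 105 and 102 CPM in the anti-miR-409-5p libraries, 103, 99.9, 103 and 100 CPM in the anti-miR-501-3p libraries, and 120 and 108 CPM in the control libraries. Control replicate 1 stood far above the rest, and control replicate 2 was close to the highest anti-miR libraries. Psmd4 fell, with a log2 fold change of -0.13 ± 0.044 (SE; edgeR, Benjamini-Hochberg adjusted p = 0.0347) in anti-miR-409-5p libraries and one of -0.16 ± 0.044 (SE, adjusted p = 0.00829) in anti-miR-501-3p libraries. Leaving out control replicate 1 brought Psmd4 to -0.041 in anti-miR-409-5p libraries and -0.076 in anti-miR-501-3p libraries, and removing the GC and length trend to 0.023 in anti-miR-409-5p libraries and -0.0096 in anti-miR-501-3p libraries. Psmd8 (chr7:29174188-29180701, - strand), another lid subunit, had 137, 138, 129 and 126 CPM in the anti-miR-409-5p libraries, 134, 129, 137 and 135 CPM in the anti-miR-501-3p libraries, and 152 and 144 CPM in the control libraries. All anti-miR libraries were below both controls, and Psmd8 fell, with a log2 fold change of -0.16 ± 0.044 (SE; edgeR, Benjamini-Hochberg adjusted p = 0.0134) in anti-miR-409-5p libraries and one of -0.15 ± 0.044 (SE, adjusted p = 0.0148) in anti-miR-501-3p libraries. For Psmd8 these values were -0.11 in anti-miR-409-5p libraries and -0.10 in anti-miR-501-3p libraries without control replicate 1, and -0.052 in anti-miR-409-5p libraries and -0.038 in anti-miR-501-3p libraries with the trend removed.

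Psmd2 (chr16:20651652-20663414, + strand), a large base subunit that binds substrate shuttles, had 243, 234, 231 and 232 CPM in the anti-miR-409-5p libraries, 235, 230, 236 and 225 CPM in the anti-miR-501-3p libraries, and 250 and 246 CPM in the control libraries. Its libraries did not overlap between each anti-miR and control. It was the member just inside the threshold in anti-miR-501-3p libraries, where it fell with a log2 fold change of -0.10 ± 0.037 (SE; edgeR, Benjamini-Hochberg adjusted p = 0.0429), and it did not pass in anti-miR-409-5p libraries, with one of -0.079 ± 0.037 (SE, adjusted p = 0.122). Psmd2 in anti-miR-501-3p libraries had -0.052 with the trend removed and -0.077 without control replicate 1. Psmd14 (chr2:61711694-61800376, + strand), the deubiquitinase that removes ubiquitin chains before degradation, was the 1 regulatory subunit of this class that rose. It had 88.2, 87, 91.3 and 86.5 CPM in the anti-miR-409-5p libraries, 90.1, 87.5, 90.5 and 87.9 CPM in the anti-miR-501-3p libraries, and 79.1 and 84.4 CPM in the control libraries. Every anti-miR library was above both controls, and control replicate 1 was the lowest library. It passed in anti-miR-501-3p libraries, with a log2 fold change of 0.12 ± 0.043 (SE; edgeR, Benjamini-Hochberg adjusted p = 0.0351), and not in anti-miR-409-5p libraries, with one of 0.11 ± 0.043 (SE, adjusted p = 0.0644). Once the GC and length trend was removed, its log2 fold changes were -0.028 in anti-miR-409-5p libraries and -0.050 in anti-miR-501-3p libraries, and without control replicate 1 they were 0.076 in anti-miR-409-5p libraries and 0.088 in anti-miR-501-3p libraries.

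The remaining 9 genes of this class passed in neither comparison. They include Psmd5, Psmd9 and Psmd10, chaperones that assemble the base rather than subunits of the finished particle, with log2 fold changes of 0.052, -0.11 and -0.052 in anti-miR-409-5p libraries and 0.097, -0.089 and 0.056 in anti-miR-501-3p libraries. The exons of Psmd9 overlap the noncoding gene Gm26745 on the opposite strand over 25.5% of their length, so its reads cannot be assigned with certainty. Psmd11 shares 97.9% identity over 1501 bases with A730017L22Rik, which had 22.9% as many counts and rose in both comparisons, with log2 fold changes of 0.28 in anti-miR-409-5p libraries (edgeR, Benjamini-Hochberg adjusted p = 0.0081) and 0.24 in anti-miR-501-3p libraries (adjusted p = 0.0159). Psmd11 itself was at 0.10 in anti-miR-409-5p libraries and 0.049 in anti-miR-501-3p libraries and not called. With both sets of reads added, it was called higher in anti-miR-409-5p libraries, at 0.13 (edgeR, Benjamini-Hochberg adjusted p = 0.0323).

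Set side by side, 11 members were called lower in both comparisons, Psma3 and Psmc6 were called higher in both, and 20 of the 38 were called in neither. Over all tested genes 10.2% were called lower in both, 14.4% higher in both and 63.8% in neither, and the shared control libraries enter each of these counts. Psmc1 was called in anti-miR-409-5p libraries alone, and Psma5, Psmb2, Psmd2 and Psmd14 in anti-miR-501-3p libraries alone, against 3.17% and 8.4% of all tested genes. No member was called with opposite signs, and 0 of all tested genes were. When the anti-miR groups were compared with each other, which does not involve the control libraries, 0 of 38 members were called in edgeR and 0 in DESeq2, and 0 members had an unadjusted p under 0.05, against 992 of all tested genes. Over all genes the share called was 0% as well in edgeR, and DESeq2 called 3 genes. The log2 fold changes of anti-miR-409-5p against anti-miR-501-3p libraries ran from -0.46 for Psmb11 to 0.069 for Psma5, with a median of -0.0014. Setting aside Psmb8, Psmb9 and Psmb11, the standard errors were at most 0.076. A p above the threshold does not show that the anti-miRs act alike on these genes.

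The differences against control followed the GC content of the members' transcripts. Across the 38 tested members, which share the same libraries, Spearman's rho between GC content and log2 fold change was -0.815 in anti-miR-409-5p libraries and -0.816 in anti-miR-501-3p libraries, and over the 16839 tested genes with a GC value it was -0.709 and -0.713. Under 42% GC, 2 of 3 members rose in each comparison, where 57% of all genes rose in anti-miR-409-5p libraries and 63.2% in anti-miR-501-3p libraries. At 54% GC and over, 6 of 8 members fell in each, where 34.2% and 42.6% of all genes fell. Between 50% and 54% GC, 5 of 11 members fell in anti-miR-409-5p libraries and 7 of 11 in anti-miR-501-3p libraries, against 9.37% and 13.2% of all genes. In these ranges the members' medians were below those of all genes in anti-miR-409-5p libraries, -0.12 against -0.066 at 50% to 54% and -0.26 against -0.17 at 54% and over. In anti-miR-501-3p libraries they were -0.13 against -0.072, and -0.17 against -0.18. Whether the trend is of the cells or of the libraries was not tested. With the GC and length trend removed, the median log2 fold change of the members was -0.051 in anti-miR-409-5p libraries and -0.046 in anti-miR-501-3p libraries. Spearman's rho over the members was then 0.164 in anti-miR-409-5p and 0.434 in anti-miR-501-3p libraries, positive rather than negative. Members of low GC content thus tended to have the lower corrected values.

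**Figure D4:**
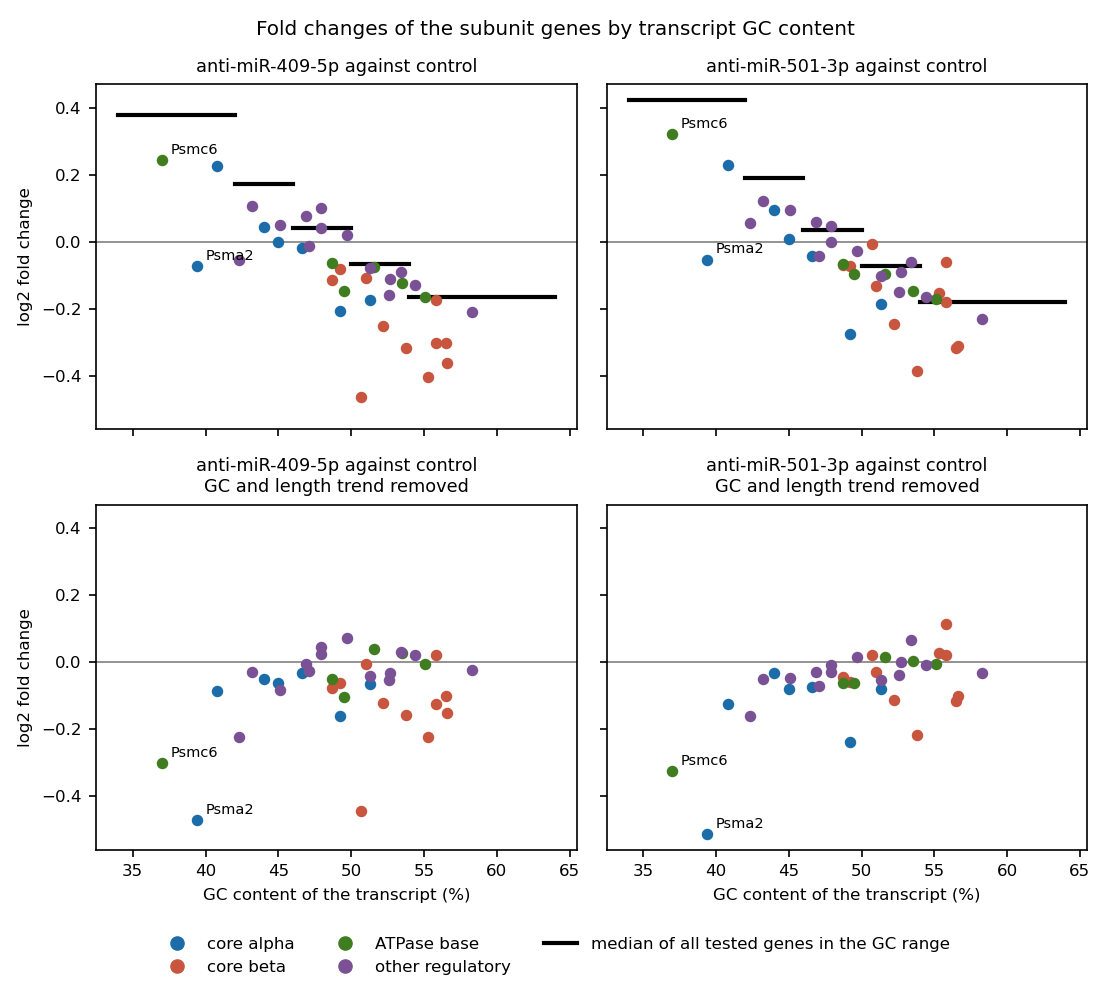
Log2 fold change of the 38 tested proteasome subunit genes against the GC content of their transcript (%), coloured by class, in anti-miR-409-5p (left) and anti-miR-501-3p libraries (right) against control; black lines in the upper panels are medians of all tested genes in the GC range, and the lower panels show the values with the GC and length trend removed. In the upper panels the points descend from Psmc6 at 37% GC to the genes over 54%, and in the lower panels Psmc6 and Psma2 lie below all other points except Psmb11 in anti-miR-409-5p libraries.

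Promoters were examined because subunit genes are known to be transcribed together through antioxidant response elements. RefSeq promoter windows of GRCm38.p6, from 250 bases before to 50 after the start, matched 32 members. The motif TGACNNNGC, searched on both strands, was found in 5 of them, Psmb5, Psmb6, Psmc6, Psmd9 and Psmd12, and in 14% of all 27025 genes. CCAAT was found in 13 members and 41.1% of all genes, and GGGCGG in 19 members and 38.2% of all genes. The stretches around the motif are shown for the 3 of those 5 members with the smallest p against control, with the motif in capitals. Psmc6 carries it on the other strand.
Psmc6 (chr14:45329577-45329625, + strand): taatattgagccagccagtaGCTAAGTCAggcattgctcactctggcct
Psmb6 (chr11:70525328-70525376, + strand): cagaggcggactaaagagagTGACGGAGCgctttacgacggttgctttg
Psmb5 (chr14:54618014-54618062, - strand): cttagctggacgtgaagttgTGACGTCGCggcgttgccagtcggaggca
These 3 members did not move in 1 direction: Psmb5 and Psmb6 fell and Psmc6 rose, as given above, and Psmd9 and Psmd12 were called in neither comparison. A match describes letters in the window and is not evidence of binding.

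Genes that act with the subunits but fall outside the rule moved in both directions, and their counts are to be read against the shares of all genes given above. Among transcriptional regulators of subunit genes, Nfe2l1 itself averaged 315 ± 4.23 CPM in anti-miR-409-5p libraries, 317 ± 3.26 CPM in anti-miR-501-3p libraries (SD, n = 4 each) and 329 ± 0.291 CPM in control libraries (SD, n = 2), with log2 fold changes of -0.063 in anti-miR-409-5p libraries and -0.054 in anti-miR-501-3p libraries that did not pass. It is given here as the factor named above and not by the rule for named genes. Of the 6 genes of that list, 1 rose and 2 fell in anti-miR-409-5p libraries and 1 rose and 1 fell in anti-miR-501-3p libraries. Ngly1, whose enzyme is needed to activate Nfe2l1, rose, with a log2 fold change of 0.19 ± 0.061 (SE; edgeR, Benjamini-Hochberg adjusted p = 0.0285) in anti-miR-409-5p libraries and one of 0.23 ± 0.061 (SE, adjusted p = 0.00667) in anti-miR-501-3p libraries. With the GC and length trend removed Ngly1 had -0.038 in anti-miR-409-5p libraries and -0.018 in anti-miR-501-3p libraries, lower rather than higher, and without control replicate 1 0.17 in anti-miR-409-5p libraries and 0.22 in anti-miR-501-3p libraries. Mafg, which encodes a dimerisation partner, fell, with a log2 fold change of -0.13 ± 0.039 (SE; edgeR, Benjamini-Hochberg adjusted p = 0.0212) in anti-miR-409-5p libraries and one of -0.11 ± 0.039 (SE, adjusted p = 0.0305) in anti-miR-501-3p libraries. Mafg had -0.027 in anti-miR-409-5p libraries and 0.0027 in anti-miR-501-3p libraries with that trend removed, and -0.11 in anti-miR-409-5p libraries and -0.10 in anti-miR-501-3p libraries without control replicate 1.

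Of the 6 assembly chaperones listed outside the rule, 5 were tested, and 2 fell in anti-miR-409-5p and 3 in anti-miR-501-3p libraries. Pomp, the chaperone of core assembly, averaged 92.2 ± 3.49 CPM in anti-miR-409-5p libraries, 94.1 ± 2.07 CPM in anti-miR-501-3p libraries (SD, n = 4 each) and 103 ± 0.32 CPM in control libraries (SD, n = 2). Pomp fell, with a log2 fold change of -0.17 ± 0.043 (SE; edgeR, Benjamini-Hochberg adjusted p = 0.00793) in anti-miR-409-5p libraries and one of -0.14 ± 0.043 (SE, adjusted p = 0.0193) in anti-miR-501-3p libraries, and remained called lower with the GC and length trend removed, at -0.19 in anti-miR-409-5p libraries and -0.16 in anti-miR-501-3p libraries, but not without control replicate 1, at -0.16 in anti-miR-409-5p libraries and -0.13 in anti-miR-501-3p libraries. Psmg4 fell in both, with a log2 fold change of -0.34 ± 0.097 (SE; edgeR, Benjamini-Hochberg adjusted p = 0.0138) in anti-miR-409-5p libraries and one of -0.40 ± 0.097 (SE, adjusted p = 0.00453) in anti-miR-501-3p libraries. Psmg4 was at -0.18 in anti-miR-409-5p libraries and -0.22 in anti-miR-501-3p libraries with the trend removed, and at -0.25 in anti-miR-409-5p libraries and -0.30 in anti-miR-501-3p libraries without control replicate 1. Among 5 activators and inhibitors of the core, 1 rose in anti-miR-409-5p libraries, and 1 rose and 1 fell in anti-miR-501-3p libraries. Psme4, which encodes a nuclear activator, rose, with a log2 fold change of 0.22 ± 0.048 (SE; edgeR, Benjamini-Hochberg adjusted p = 0.00292) in anti-miR-409-5p libraries and one of 0.21 ± 0.048 (SE, adjusted p = 0.00337) in anti-miR-501-3p libraries, and Psme1 fell in anti-miR-501-3p libraries, with one of -0.16 ± 0.058 (SE, adjusted p = 0.0472). Removing the trend took Psme4 to 0.029 in anti-miR-409-5p libraries and 0.0079 in anti-miR-501-3p libraries, and leaving out control replicate 1 to 0.18 in anti-miR-409-5p libraries and 0.16 in anti-miR-501-3p libraries. Psme1 in anti-miR-501-3p libraries had 0.026 with the trend removed, higher rather than lower, and -0.16 without control replicate 1.

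Among 9 other proteins bound to the particle, 6 rose and 2 fell in anti-miR-409-5p libraries, and 6 rose and 1 fell in anti-miR-501-3p libraries, with medians of 0.14 in anti-miR-409-5p and 0.13 in anti-miR-501-3p libraries. Usp14, the deubiquitinase that trims chains at the particle, averaged 217 ± 7.02 CPM in anti-miR-409-5p libraries, 222 ± 9.18 CPM in anti-miR-501-3p libraries (SD, n = 4 each) and 172 ± 8.6 CPM in control libraries (SD, n = 2). Usp14 rose, with a log2 fold change of 0.34 ± 0.046 (SE; edgeR, Benjamini-Hochberg adjusted p = 8.80e-05) in anti-miR-409-5p libraries and one of 0.37 ± 0.046 (SE, adjusted p = 2.52e-05) in anti-miR-501-3p libraries. Zfand5 rose, with a log2 fold change of 0.30 ± 0.056 (SE; edgeR, Benjamini-Hochberg adjusted p = 0.000886) in anti-miR-409-5p libraries and one of 0.33 ± 0.056 (SE, adjusted p = 0.000302) in anti-miR-501-3p libraries, and Txnl1, with one of 0.20 ± 0.045 (SE, adjusted p = 0.00381) in anti-miR-409-5p libraries and one of 0.22 ± 0.045 (SE, adjusted p = 0.00114) in anti-miR-501-3p libraries. The transcripts of Usp14, Zfand5 and Txnl1 have GC contents of 39.2%, 39.8% and 39.2%, and with the GC and length trend removed their log2 fold changes were -0.081, -0.098 and -0.22 in anti-miR-409-5p libraries and -0.11, -0.11 and -0.25 in anti-miR-501-3p libraries, of which the last was called lower (edgeR, Benjamini-Hochberg adjusted p = 0.0475). The direction of these genes thus depended on that trend too. Without control replicate 1 all 3 remained called higher in both comparisons, Usp14 at 0.30 in anti-miR-409-5p libraries and 0.33 in anti-miR-501-3p libraries, Zfand5 at 0.25 in anti-miR-409-5p libraries and 0.28 in anti-miR-501-3p libraries, and Txnl1 at 0.21 in anti-miR-409-5p libraries and 0.24 in anti-miR-501-3p libraries.

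Of 10 genes that deliver ubiquitinated proteins, 3 rose and 1 fell in anti-miR-409-5p libraries, and 4 rose and 2 fell in anti-miR-501-3p libraries. Ubqln1, a shuttle for ubiquitinated proteins, averaged 229 ± 10.5 CPM in anti-miR-409-5p libraries, 228 ± 3.26 CPM in anti-miR-501-3p libraries (SD, n = 4 each) and 201 ± 2.55 CPM in control libraries (SD, n = 2). It rose, with a log2 fold change of 0.19 ± 0.042 (SE; edgeR, Benjamini-Hochberg adjusted p = 0.00292) in anti-miR-409-5p libraries and one of 0.18 ± 0.042 (SE, adjusted p = 0.00302) in anti-miR-501-3p libraries, and remained called higher with the GC and length trend removed, at 0.14 in anti-miR-409-5p libraries and 0.13 in anti-miR-501-3p libraries, and without control replicate 1, at 0.19 in anti-miR-409-5p libraries and 0.18 in anti-miR-501-3p libraries. Rad23b, another shuttle, rose with a log2 fold change of 0.18 ± 0.043 (SE; edgeR, Benjamini-Hochberg adjusted p = 0.005001) in anti-miR-409-5p libraries and one of 0.18 ± 0.043 (SE, adjusted p = 0.00321) in anti-miR-501-3p libraries. Rad23b had 0.085 in anti-miR-409-5p libraries and 0.082 in anti-miR-501-3p libraries with the trend removed, and 0.19 in anti-miR-409-5p libraries and 0.20 in anti-miR-501-3p libraries without control replicate 1, called in anti-miR-501-3p libraries alone. Ddi2, the protease that activates Nfe2l1, rose with a log2 fold change of 0.16 ± 0.051 (SE; edgeR, Benjamini-Hochberg adjusted p = 0.0235) in anti-miR-409-5p libraries and one of 0.22 ± 0.051 (SE, adjusted p = 0.00319) in anti-miR-501-3p libraries, and remained called with the trend removed in anti-miR-501-3p libraries alone, at 0.17, against 0.093 in anti-miR-409-5p libraries. Leaving out control replicate 1 gave Ddi2 0.13 in anti-miR-409-5p libraries and 0.18 in anti-miR-501-3p libraries.

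Uba6, an activating enzyme of ubiquitin, averaged 41.1 ± 3.44 CPM in anti-miR-409-5p libraries, 42.8 ± 2.22 CPM in anti-miR-501-3p libraries (SD, n = 4 each) and 30.2 ± 2.34 CPM in control libraries (SD, n = 2). Uba6 rose, with a log2 fold change of 0.45 ± 0.073 (SE; edgeR, Benjamini-Hochberg adjusted p = 0.000467) in anti-miR-409-5p libraries and one of 0.50 ± 0.073 (SE, adjusted p = 0.000109) in anti-miR-501-3p libraries, and at a GC content of 37.4% had -0.12 in anti-miR-409-5p libraries and -0.14 in anti-miR-501-3p libraries with the GC and length trend removed. It remained called higher without control replicate 1, at 0.38 in anti-miR-409-5p libraries and 0.44 in anti-miR-501-3p libraries.

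The authors' deposited tables, which compare each anti-miR with control, list 38 of the 39 members. At their adjusted p under 0.05, 2 members were higher and 10 lower in anti-miR-409-5p, and 2 were higher and 12 lower in anti-miR-501-3p. Of all genes with an adjusted p in the authors' deposited tables, 18% were higher and 10.8% lower in anti-miR-409-5p, and 18.9% were higher and 14.1% lower in anti-miR-501-3p. Of the members called here, 12 of 14 and 14 of 17 were called in the same direction in the authors' deposited tables.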

How the data were processed

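Polyadenylated RNA of 10 libraries in 3 groups was sequenced as single-end 50 bp reads from TruSeq RNA v2 libraries, per the labels' protocols; the kit does not mark strand. Per the submitters' processing notes, the genome build was mm10 and the tools were STAR 2.5.2b, Subread 1.5.1 with featureCounts, and FastQC 0.11.5. The annotation release, the strand setting and the handling of multi-mapping reads are not given in the sources used here. The deposited values are raw counts per Ensembl gene for each library, with no normalization. The authors also deposited 1 comparison table per anti-miR, holding log2 fold changes and p-values per the file headers, which was used only to compare calls.

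Genes were named by Ensembl identifier (48349 of 48709 matched). With R 4.3.3, filterByExpr left 16884 genes, libraries were scaled by TMM, and edgeR 4.0.16 (robust quasi-likelihood, two-sided) was fitted to all 10 libraries in 3 groups with no covariate, since control has 2 libraries. A gene was called at a Benjamini-Hochberg adjusted p under 0.05 over all tested genes. The GC and length trend was removed by regressing, in each library, each gene's log2 deviation from its mean (prior count of 2) on splines with 5 degrees of freedom of GC content and log transcript length, used as an offset; 99.7% of tested genes had both values. GC content and transcript length were those of the longest coding transcript, or of the longest transcript where none is coding. TPM used the union of exons. The fit was tested on simulated data with planted changes. That simulation had the same dispersion for all genes, the same GC trend in all anti-miR libraries and no difference between control libraries. It cannot show how the fit behaves where control libraries differ, as they do here. Alternatives used DESeq2 1.42.0, sva 3.50.0, other scalings and filters, a replicate block and leaving out each library.

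Replicate numbers were not taken to pair libraries in the main fit. Same-numbered libraries deviated together with correlations of 0.0283 to 0.174, and a replicate block was run as an alternative. Members and lists were chosen with earlier results of these data known. Values per library are given for the 4 members of smallest p in each class in either comparison, called members that go against their class, the inducible and tissue-restricted subunits, and the members on each side of the threshold; of each related list up to 3 genes of smallest p are named, and some results of 1 list are not reported here. Adding the reads of near-identical copies was chosen after seeing the data.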

Additional observations from a re-analysis of the deposited data

How the results depend on the processing

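With 14 proteasome members called in anti-miR-409-5p libraries and 17 in anti-miR-501-3p libraries, removing the GC and length trend left 2 and 2, the same with the replicate block 3 and 2, and 1 surrogate variable 0 and 0. Leaving out each library in turn gave 1 to 16 and 3 to 18, the lowest in both without control replicate 1. The replicate block alone gave 16 and 19. In each of the 8 same-numbered pairs of libraries the deviations of one correlated best with those of its own number, a hint from the data and not from the design. Control has only 2 libraries, so in its pairs best means the better of 2. The GC slope and mitochondrial share also ran with replicate number, and their part in this was not tested. The direct comparison kept 0 members under every alternative run. With the GC and length trend removed, signs reversed in anti-miR-409-5p libraries for Psma3 (-0.086), Psmb6 (0.023), Psmc4 (0.029), Psmc6 (-0.30) and Psmd4 (0.023), and in anti-miR-501-3p libraries for Psma3 (-0.13), Psmb6 (0.021), Psmc4 (0.0024), Psmc6 (-0.33) and Psmd14 (-0.050). With the replicate block as well, they were -0.041, 0.0099, 0.017, -0.28 and 0.0043 for the same members in anti-miR-409-5p libraries, and -0.080 (Psma3), 0.0090 (Psmb6), -0.30 (Psmc6) and -0.038 (Psmd14) in anti-miR-501-3p libraries. Of the 31 fold changes of called members under 21 alternatives each, 489 values kept direction and call, 143 lost the call and 19 reversed. The cause was not tested. Over all genes, 4696 and 5579 were called, against 909 and 1354 with the GC and length trend removed, 990 and 1460 with the block as well, 936 and 692 with 1 surrogate variable, and 1302 and 1800 without control replicate 1. In the direct comparison, where 0 genes were called, 42 were called with no filter, 3 by DESeq2, 1 with only the compared groups, 252 with the replicate block, 2 with the GC and length trend removed, 183 with both, 11 with 1 surrogate variable, 1 without control replicate 1 and 1 without control replicate 2. With the longest transcript as length, control medians were 173 TPM against 110 (alpha), 54.9 against 70.6 (all 11 tested beta) and 178 against 136 (other regulatory). With 2 control libraries, the estimate of spread comes mostly from the anti-miR libraries, and at fewer than 50 counts a group Psmb8 and Psmb11 cannot resolve a change of the size seen in other members.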
